A study of Caenorhabditis elegans with 22 samples.

Results

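The response of wild-type *C. elegans* embryos to high salt was described from 6 of the 22 samples of the series, the wild-type libraries of the experiment that also held *daf-16* mutants (experiment 2). They were chosen by their labels and library numbers, with no use of expression values. Embryos of the Bristol strain N2, the laboratory wild type, were placed on standard nematode growth medium plates holding either 50 mM or 500 mM NaCl, and total RNA was extracted after 3 h. Replicates 3, 4 and 5 at 50 mM (n = 3) were the controls, and replicates 4, 5 and 6 at 500 mM (n = 3) were the salt-exposed samples. The other samples were 6 of *daf-16(m26)* mutants at the same NaCl concentrations, whose strain label lists both *m26* and *mu86*, and those of an earlier experiment (experiment 1) with *ssu-1* mutants and 5 wild-type samples. The series calls its replicates biological but does not say whether they came from separate cultures. The p-values therefore measure the spread between samples, pooled over the wild-type and *daf-16* samples of experiment 2. The stage of the embryos when they met the salt is not given in the sources used here.

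Water leaves a cell when the salt outside rises, and *C. elegans* answers by making glycerol, a small solute that holds water inside. The rate is set mainly by glycerol-3-phosphate dehydrogenase, and damaged furrows of the cuticle, the collagen coat of the animal, turn on the same genes. Strong osmotic stress also stops development at hatching, an arrest that depends on lowered insulin-like signalling and on DAF-16, the FOXO transcription factor that this pathway holds in check.

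Expression was measured as FPKM, the number of fragments scaled to transcript length and to library depth. It allows levels to be compared between genes. A comparison between samples also depends on how the libraries are scaled to each other, and other scalings are given in the closing section. Depth, which the steps between small FPKM values allow to be estimated, lay between 15200000 and 23600000 fragments per library. The fragment length fitted with it was 90 to 100 bases, at or near the lower end of the range searched, so these depths are approximate. The 3 libraries at 500 mM were closely alike (Pearson correlation across the tested genes 0.994 to 0.995, a description over genes that share their libraries), and those at 50 mM less so (0.971 to 0.980). Replicate 4 at 50 mM lay nearer to the libraries at 500 mM (0.903 to 0.905) than replicates 3 and 5 did (0.855 to 0.865). Replicates 3 and 4 at 50 mM carry library numbers of one series (D17-16) and the other 4 libraries numbers of another (D17-22). Of 49 genes of adult germline and sperm, listed as markers of parental tissue, 2 passed the filter on low values. Their summed level was 0.0 to 0.24 FPKM in the controls and 4.98 to 7.39 FPKM in the salt-exposed libraries. Both were below 1 FPKM in every control and passed only through other libraries, so the filter itself favoured this direction. These values therefore do not show whether the groups differed in parental tissue. The part of such tissue in the results below was not tested.

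Differences were tested gene by gene with limma on log2(FPKM + 1), a scale that understates the change of genes with low FPKM. Of 14868 genes tested, 5450 (36.7%) were higher and 4978 (33.5%) lower at 500 mM NaCl at an adjusted p-value under 0.05. At least 2-fold changes on that scale were fewer, with 1377 genes (9.26%) higher and 1838 (12.4%) lower. The median difference over all genes tested was 0.06. These shares are the background for every group below. The wild-type change was also compared with that of experiment 1 by the interaction of experiment and NaCl, in which 2486 of 14638 genes (17%) changed more positively in experiment 2 and 2135 (14.6%) more negatively.

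The genes for glycerol synthesis rose together. All 5 members that passed the filter on low values, of 6 listed, passed the test, 4 of them at least 2-fold, with a median log2 difference of 4.52. *gpdh-1* (F47G4.3), the inducible glycerol-3-phosphate dehydrogenase, was at 3.61, 2.51 and 1.88 FPKM at 50 mM and 133.5, 136.8 and 145.3 FPKM at 500 mM. Every salt-exposed library was far above every control, and the mean went from 2.67 ± 0.876 to 138.5 ± 6.07 FPKM (SD, n = 3), a log2 difference of 5.28 ± 0.15 (SE; adjusted p = 5.42e-11). The paralog *gpdh-2* was already expressed in the controls, with 117.8, 91.95 and 108.8 FPKM at 50 mM and 228.9, 223.9 and 226.3 FPKM at 500 mM, and rose by 1.09 ± 0.10. *pgph-2* and *pgph-3*, homologs of the phosphatase that frees glycerol from glycerol-3-phosphate, reached 123.2, 122.4 and 121.8 and 99.07, 103.9 and 103.2 FPKM at 500 mM from 3.53, 4.83 and 4.33 and 2.51, 4.06 and 4.08 FPKM at 50 mM. Their log2 differences of 4.57 and 4.52 were close to that of *gpdh-1*, whereas *gpdh-3* rose by only 0.43 ± 0.08. Trehalose, the other sugar-like solute of nematodes, showed no such pattern. Of 8 genes of its metabolism 3 rose and 2 fell, none by 2-fold, among them *gob-1*, the trehalose-6-phosphate phosphatase (0.75 ± 0.07), the synthase *tps-1* (0.51 ± 0.08) and the trehalase *tre-3* (-0.76 ± 0.13).

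**Figure D1:**
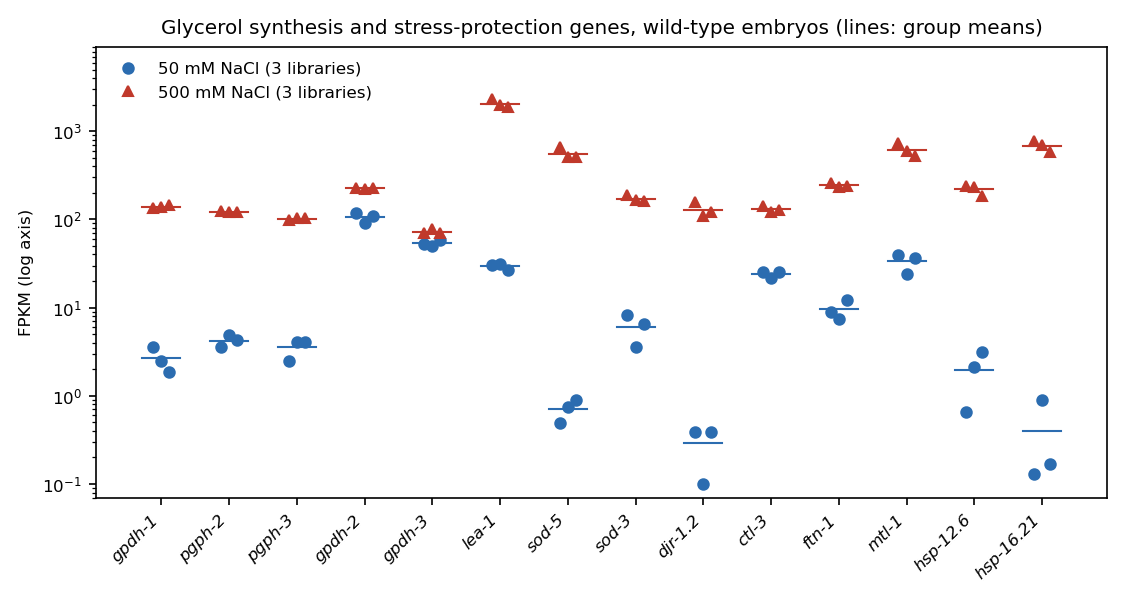
FPKM (log axis) of glycerol synthesis and stress-protection genes in each of the 6 wild-type libraries, circles for 50 mM and triangles for 500 mM NaCl, with a line at each group mean. Only members that rose are drawn. Members of the same groups that fell, such as *mtl-2* and *sod-1*, or did not pass, such as *ctl-1*, are left out. For all 14 genes drawn the 3 salt-exposed libraries therefore lie above the 3 controls. The smallest gap is that of *gpdh-3* (0.43 on the log2 scale) and the widest that of *hsp-16.21* (8.97).

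Water channels and ion carriers moved mostly the other way. Of 11 aquaporins 7 fell, 4 of them at least 2-fold, and 3 rose. *aqp-1*, a channel for water and glycerol, was at 44.2, 39.75 and 53.02 FPKM at 50 mM and 4.11, 4.53 and 3.46 FPKM at 500 mM, without overlap, and fell by 3.21 on the log2 scale (SE 0.12, adjusted p = 5.05e-10). *aqp-4*, *aqp-7* and *aqp-9* fell by 1.98, 2.11 and 2.32. *aqp-2* stood out by its level, at 1340.7, 1605.9 and 1519.5 FPKM at 50 mM and 2968.6, 2804.4 and 3185.1 FPKM at 500 mM, and rose by 1.01 ± 0.10, one of the 10 largest gains of FPKM in the transcriptome. Among 26 genes of ion transport and WNK signalling 8 rose and 14 fell. *wnk-1*, the kinase that senses crowding and drives ion uptake in other animals, rose by 1.04 ± 0.12, and *catp-3*, a P-type cation ATPase, fell by 3.66 (SE 0.11). In experiment 1 *aqp-2* and *wnk-1* changed by -0.055 and 0.24, and neither passed (adjusted p = 0.76 and 0.17 in limma). The interaction of experiment and NaCl passed for both (adjusted p = 0.0011 and 0.0063). Their control means differed too, at 1488.7 and 40.79 FPKM here and 3484.6 and 76.38 FPKM in experiment 1. Under median-ratio scaling no member of either list was at least 2-fold higher.

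Genes of stress protection held some of the largest increases. *lea-1* (K08H10.1), which encodes a late embryogenesis abundant protein, a class that shields other proteins during drying, was at 30.54, 31.17 and 26.65 FPKM at 50 mM and 2309.9, 1959.9 and 1874.3 FPKM at 500 mM. That is 69.5 times the control mean with no overlap, or 6.07 ± 0.12 on the log2 scale (adjusted p = 4.52e-12), and the second largest gain of FPKM. *sod-5* (ZK430.3), a cytosolic copper/zinc superoxide dismutase, went from 0.49, 0.74 and 0.9 FPKM to 654.3, 508.2 and 511.4 FPKM. Its log2 difference of 8.35 ± 0.18 (adjusted p = 5.84e-12) was the third largest of all. *sod-3*, the mitochondrial manganese enzyme, was at 8.21, 3.56 and 6.51 FPKM at 50 mM and 190, 164.4 and 160 FPKM at 500 mM, a log2 difference of 4.66 ± 0.21. *djr-1.2*, a DJ-1 family glyoxalase, was at 0.39, 0.1 and 0.39 FPKM at 50 mM and 157, 108.2 and 121.4 FPKM at 500 mM, a difference of 6.64 ± 0.15. The catalase gene *ctl-3* rose by 2.38 ± 0.12, but *ctl-1* (0.11 ± 0.10, adjusted p = 0.34) and *ctl-2* (-0.07 ± 0.09, adjusted p = 0.50) did not pass, and *sod-1*, the main cytosolic enzyme, fell by 0.35 with overlapping groups. Of 10 genes in this group 5 rose and 1 fell.

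Among metal-binding genes both ferritins rose, and the metallothioneins split by paralog. The ferritin *ftn-1* went from 9.57 ± 2.42 to 242.7 ± 11.1 FPKM (mean ± SD, n = 3), a log2 difference of 4.55 ± 0.14 without overlap, and *ftn-2*, which is expressed more strongly at 50 mM, rose by 0.67 ± 0.11. The metallothionein *mtl-1* rose by 4.18 ± 0.19, from 39.25, 24.2 and 36.83 FPKM to 725.9, 597.5 and 525.6 FPKM. Its intestinal paralog *mtl-2* fell from 66.98, 33.27 and 65.41 FPKM to 3.24, 2.5 and 1.97 FPKM, by 3.93 on the log2 scale. The glutathione peroxidases also divided, with *gpx-6* up by 2.08 and *gpx-1* and *gpx-7* down by 2.93 and 2.38.

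Small heat-shock proteins, which hold unfolded proteins in solution, did not move as a family. Of 16 tested members 6 rose and 5 fell. *hsp-16.21* (F08H9.4) had the largest increase of all genes, at 0.13, 0.9 and 0.17 FPKM at 50 mM and 782.8, 703.1 and 574.6 FPKM at 500 mM (8.97 ± 0.21, adjusted p = 8.76e-12). *hsp-12.6*, a known target of DAF-16, was at 0.66, 2.14 and 3.11 FPKM at 50 mM and 239.1, 230.3 and 186.3 FPKM at 500 mM (6.30 ± 0.29), and *hsp-16.20* (F08H9.3) rose by 3.47 ± 0.21. The members named in the rest of this paragraph, other than *hsp-16.1*, were chosen after their values were seen. *hsp-12.3* rose by 2.85 ± 0.30. The heat-inducible genes of the *hsp-16.1* and *hsp-16.2* pairs varied widely between replicates. *hsp-16.11* was at 108.2, 194.7 and 37.68 FPKM at 50 mM and 27.88, 137.2 and 57.35 FPKM at 500 mM, with overlapping groups and no call (adjusted p = 0.46), and *hsp-16.2* was at 30.85, 55.77 and 36.19 FPKM at 50 mM and 5.74, 26.96 and 11.83 FPKM at 500 mM and fell by 1.60 (SE 0.64, adjusted p = 0.040). *hsp-16.1*, listed at 0 in 1 control and in all 3 salt-exposed libraries, did not pass either (adjusted p = 0.052). These pairs are near-identical copies, so the split of reads between them is uncertain.

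Chaperones of the other compartments changed less, and in different directions. Of 15 genes of the endoplasmic reticulum 8 rose, none by 2-fold, with *cnx-1* (calnexin, 0.99 ± 0.09) and *enpl-1* (endoplasmin, 0.88 ± 0.08) among them. *hsp-4*, the BiP gene that the unfolded protein response induces, fell instead, from 247, 165.1 and 221.8 FPKM to 44.74, 52.25 and 50.48 FPKM (-2.06 ± 0.16, adjusted p = 2.65e-07). In mitochondria *hsp-60*, *hsp-6* and *atfs-1*, the chaperones and the regulator of the mitochondrial unfolded protein response, fell by 2.03, 0.94 and 0.89. In the cytosol *hsf-1*, the heat-shock factor, rose by 0.63 ± 0.07, and so did its inhibitor *hsb-1* (1.02 ± 0.09).

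The 20 largest increases lay between 5.55 (F55B12.10) and 8.97 (*hsp-16.21*) on the log2 scale, and the groups overlapped for none of them, as the rule that chose them required. Beside the genes above they held *fipr-22*, *fipr-23* and *fipr-24*, small secreted peptides related to those that fungal infection induces, and their neighbour C37A5.5. *fipr-22* was at 5.17, 5.26 and 4.99 FPKM at 50 mM and 1226.5, 981.8 and 977 FPKM at 500 mM, a 206.6-fold rise of the mean. Reads of this cluster may have been divided between near-identical copies, so the level of each peptide is uncertain. *ilys-6*, an invertebrate-type lysozyme, was at 0, 0.13 and 0.18 FPKM at 50 mM and 119.2, 97.87 and 97.51 FPKM at 500 mM (6.58 ± 0.14). *ant-1.2*, which encodes an exchanger of ADP and ATP across the inner mitochondrial membrane, rose by 5.66 ± 0.16, while the main isoform *ant-1.1* fell by 0.80. C54F6.15 and W02D7.11 were listed at 0 in all 3 controls and reached 88.91, 72.17 and 72.23 FPKM and 55.82, 48.47 and 47.53 FPKM. D1086.9 (8.54), *clx-1* (7.95), F15E6.4 (6.59), T23F2.4 (6.50), F14F9.2 (5.81), R09E10.13 (5.55) and F55B12.10 complete the 20, and no function is assigned to them here.

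**Figure D2:**
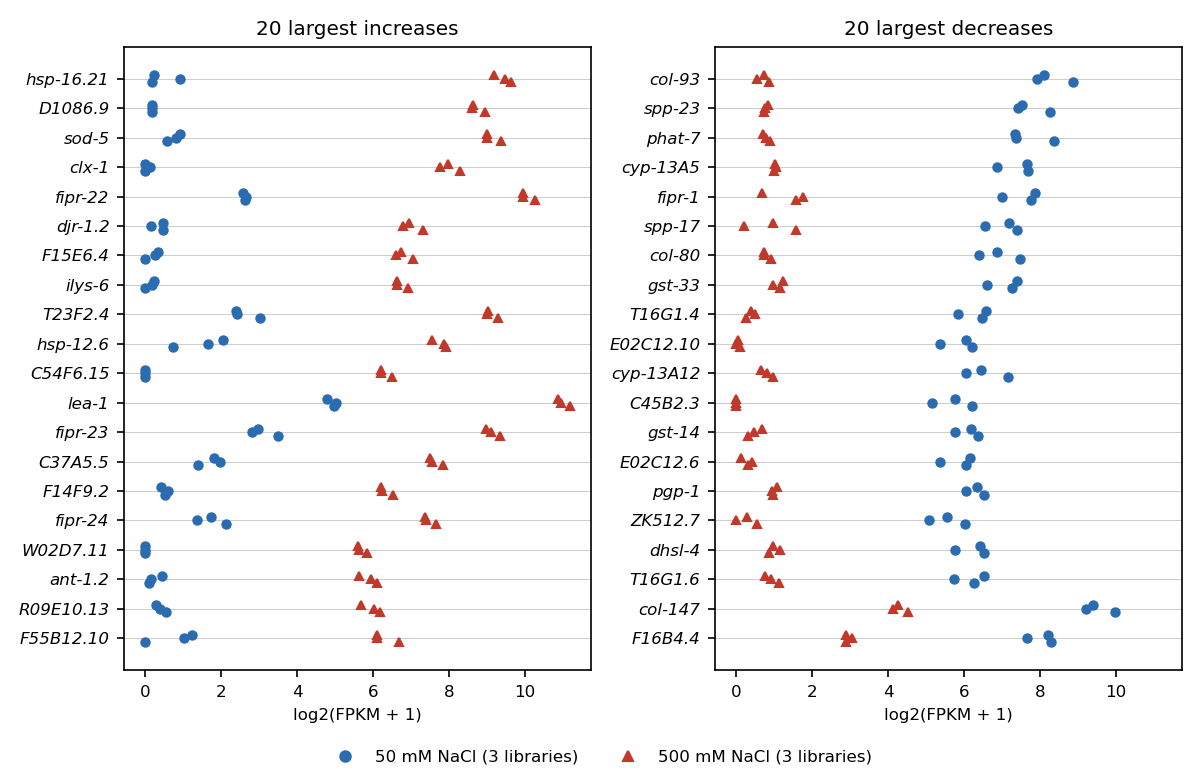
Level, as log2(FPKM + 1), of the 20 genes with the largest increases (left) and the 20 with the largest decreases (right) in each wild-type library, circles for 50 mM and triangles for 500 mM NaCl. The increased genes were at or below 10.35 FPKM in the controls except *lea-1*, at 30.54, 31.17 and 26.65 FPKM, and the decreased genes end below 3 FPKM except *col-147* and F16B4.4, at 21.94, 16.34 and 18.03 and 6.44, 7.25 and 6.39 FPKM.

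The 20 largest decreases lay between -7.57 (*col-93*) and -5.11 (F16B4.4), again without overlap. Collagens, detoxification enzymes and secreted peptides among them are described with their groups below. *dhsl-4*, a gene of the short-chain dehydrogenase family, was at 90.35, 53.45 and 84.88 FPKM at 50 mM and 0.82, 1.22 and 0.94 FPKM at 500 mM. C45B2.3 was at 72.56, 34.35 and 53.49 FPKM in the controls and listed at 0 in every salt-exposed library. The others, *phat-7* (-6.90), T16G1.4 (-5.91), E02C12.10 (-5.82), E02C12.6 (-5.58), ZK512.7 (-5.26) and T16G1.6 (-5.24), are named with no function.

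By absolute amount the largest gains were in other genes. M60.4, with no assigned function, was at 536.3, 344.3 and 380.6 FPKM at 50 mM and 3837.7, 3192.4 and 3069.5 FPKM at 500 mM, a rise of 8.01 times. *far-3*, a fatty acid and retinol binding protein, was at 29.44, 33.39 and 50.66 FPKM at 50 mM and 1838.2, 1579.0 and 1482.2 FPKM at 500 mM (5.43 ± 0.17). *hil-7*, a linker histone-like gene, was at 1124.4, 1567.2 and 1324.0 FPKM at 50 mM and 3019.9, 2858.4 and 3137.4 FPKM at 500 mM and rose by 1.18 ± 0.12. *dap-1*, named for a human death-associated protein, rose by 2.66 ± 0.13, the lectin-like *clec-266* by 3.46 ± 0.30, the cuticle collagen *dpy-17* by 1.18 ± 0.16 and C02E7.7 by 1.42 ± 0.17. *clec-266* and *dpy-17* were highest among the controls in replicate 4, at 81.34, 207 and 89.37 and 930.9, 1598.2 and 1148.4 FPKM in replicates 3, 4 and 5. In experiment 1 *hil-7* and C02E7.7 changed by -0.20 and 0.15, and neither passed (adjusted p = 0.32 and 0.58 in limma). The interaction of experiment and NaCl passed for both (adjusted p = 6.54e-04 and 0.0040). Their control means differed too, at 1338.6 and 627.4 FPKM here and 3796.9 and 1013.5 FPKM in experiment 1.

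Propionate breakdown rose, while most genes of the tricarboxylic acid and glyoxylate cycles that changed fell. Of 11 genes that break down propionate, a product of branched amino acids and odd-chain fats, 9 rose. The largest increases were those of *acdh-2* and *acdh-1*, acyl-CoA dehydrogenases, and of *hphd-1*, which oxidizes the intermediate 3-hydroxypropionate. *acdh-2* was at 0.47, 1.6 and 0 FPKM at 50 mM and 44.05, 64.23 and 59.83 FPKM at 500 mM (5.17 ± 0.31), *acdh-1* rose by 2.91 ± 0.31 and *hphd-1* by 1.33 ± 0.10. *icl-1*, the bifunctional enzyme of the glyoxylate cycle, which turns fat into sugar, was at 180.6, 171.5 and 152.8 FPKM at 50 mM and 1011.1, 953.6 and 1040.4 FPKM at 500 mM (2.57 ± 0.11, adjusted p = 1.43e-09). Of 20 genes of glycolysis and gluconeogenesis 10 rose and 5 fell (median 0.24), and *pck-2*, the gluconeogenic carboxykinase, rose by 1.05 ± 0.08. Of the 23 genes of the tricarboxylic acid and glyoxylate cycles 13 fell and 5 rose (median -0.22). Those that fell included *mdh-2* (-1.24 ± 0.13) and *fum-1* (-0.85 ± 0.08). In experiment 1 the medians of these 2 lists were 0.37 and 0.07. Of the 23 cycle genes 10 changed more negatively in experiment 2 and 2 more positively.

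Lipid genes fell more often than they rose, and families held both directions. Of 18 genes of fatty acid synthesis and desaturation 6 rose and 9 fell. Of 17 fatty acid binding genes 5 rose and 10 fell, and the same counts were 5 and 10 of 18 for one-carbon metabolism and phosphatidylcholine synthesis. The stearoyl-CoA desaturase *fat-6* was at 22.57, 16.85 and 17.72 FPKM at 50 mM and 145.1, 124.5 and 120.8 FPKM at 500 mM (2.72 ± 0.13), while the elongases *elo-5*, *elo-1* and *elo-2* fell by 2.22, 1.98 and 1.35. Of the enzymes that make the methyl donor S-adenosylmethionine, *sams-5* rose by 3.40 ± 0.20 from 1.02, 3.39 and 1.87 FPKM, and the main isoform *sams-1* fell from 224.7, 212.3 and 255.9 FPKM to 80.35, 82.78 and 81.3 FPKM (-1.49 ± 0.08). *pmt-2*, which uses that donor to make phosphatidylcholine, fell by 1.60. Autophagy genes rose almost as a set, 23 of 26 with a median of 0.66, but only 3 by 2-fold. These were *epg-2* (1.32 ± 0.15), *atg-16.2* (1.19 ± 0.08) and *lgg-1*, the LC3-like protein of the autophagosome membrane, at 736.9, 761.1 and 921.3 FPKM at 50 mM and 1666.7, 1628.3 and 1543.8 FPKM at 500 mM (1.01 ± 0.10). In experiment 1 the median of the autophagy genes was 0.21, and 15 of the 26 changed more positively in experiment 2.

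Ligands and transducers of insulin-like signalling moved in opposite directions. Of 23 tested insulin-like peptides 16 fell, 12 at least 2-fold, and 4 rose. *ins-4*, an agonist of the DAF-2 receptor, was at 13.74, 10.77 and 14.4 FPKM at 50 mM and 0.25, 0.52 and 0.38 FPKM at 500 mM, without overlap (-3.33 ± 0.17, adjusted p = 4.74e-09). *daf-28*, another agonist, was at 32.33, 21.3 and 13.75 FPKM at 50 mM and 1.96, 1.27 and 1.59 FPKM at 500 mM (-3.10 ± 0.23), and *ins-20* fell by 2.95. *ins-13* rose from 0.01, 0.18 and 0.28 FPKM to 4.6, 6.66 and 5.43 FPKM. With replicate 5 as the only control, 7 of the peptides fell at least 2-fold. Of 19 genes from the receptor to DAF-16, 12 rose and 3 fell. *akt-1*, the kinase that phosphorylates DAF-16, was at 49.6, 44.94 and 50.7 FPKM at 50 mM and 181.2, 171.8 and 155.6 FPKM at 500 mM (1.79 ± 0.08). *daf-16* itself was at 88.53, 91.16 and 74.01 FPKM at 50 mM and 249.7, 219.7 and 216.7 FPKM at 500 mM (1.43 ± 0.12, adjusted p = 3.79e-07), and the receptor gene *daf-2* rose by 0.85 ± 0.10. *ssu-1*, the cytosolic sulfotransferase at the centre of the study, rose little, from 3.21, 2.5 and 3.2 FPKM to 4.33, 3.79 and 3.97 FPKM (0.34 ± 0.13, adjusted p = 0.031). *nhr-1*, the nuclear hormone receptor studied with it, was at 126.4, 124.4 and 114.2 FPKM at 50 mM and 133.7, 128.6 and 127 FPKM at 500 mM and did not pass (adjusted p = 0.31). *daf-36*, which encodes the Rieske oxygenase that starts the synthesis of dafachronic acid steroids, fell from 18.14, 13.59 and 18.15 FPKM to 1.71, 2.26 and 1.21 FPKM (-2.70 ± 0.16).

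Detoxification genes fell in large numbers. Of 42 glutathione transferases, which attach glutathione to toxins, 33 fell and 28 did so at least 2-fold, with a median of -1.92. *gst-33* was at 151.3, 96.42 and 166.2 FPKM at 50 mM and 1.23, 0.96 and 1.33 FPKM at 500 mM (-5.96 ± 0.18, adjusted p = 7.52e-11), and *gst-14* and *gst-12* fell by 5.61 and 5.00. *gst-37* was at 26.53, 21.2 and 32.41 FPKM at 50 mM and listed at 0 in all 3 libraries at 500 mM. Of 60 UDP-glycosyltransferases 42 fell and 13 rose (median -1.15), led by *ugt-19* (-3.93 ± 0.20) and *ugt-62* (-3.63 ± 0.12). Of 68 cytochrome P450 genes 38 fell and 14 rose (median -0.54). *cyp-13A5* was at 203.1, 115.4 and 199.7 FPKM at 50 mM and 1, 1.07 and 1.02 FPKM at 500 mM (-6.37 ± 0.19), and *cyp-13A12* fell by 5.74. ABC transporters, which pump such compounds out of cells, fell in 26 of 39 cases, and *pgp-1*, a P-glycoprotein, was at 91.24, 65.04 and 80.51 FPKM at 50 mM and 0.96, 0.93 and 1.09 FPKM at 500 mM (-5.31 ± 0.12, adjusted p = 7.21e-12). The genes named so far in this paragraph were chosen for the largest changes, some of them by a rule that excluded overlap. That their groups did not overlap follows largely from this choice. In experiment 1 the median was -0.56 for glutathione transferases, -0.20 for UDP-glycosyltransferases, -0.13 for cytochrome P450 genes and -0.085 for ABC transporters. In the same order, 28 of 41, 38 of 60, 30 of 67 and 21 of 39 changed more negatively in experiment 2. Those that changed more positively were 1, 7, 6 and 4. Mean *gst-33* was 138 FPKM at 50 mM and 1.17 FPKM at 500 mM here, against 10.73 and 0.99 FPKM in experiment 1. For *pgp-9*, another P-glycoprotein gene, these means were 46.74 and 0.74 FPKM here, against 6.73 and 0.66 FPKM in experiment 1. For *gst-33* and *pgp-9* the experiments thus differed mainly in the level at 50 mM.

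**Figure D3:**
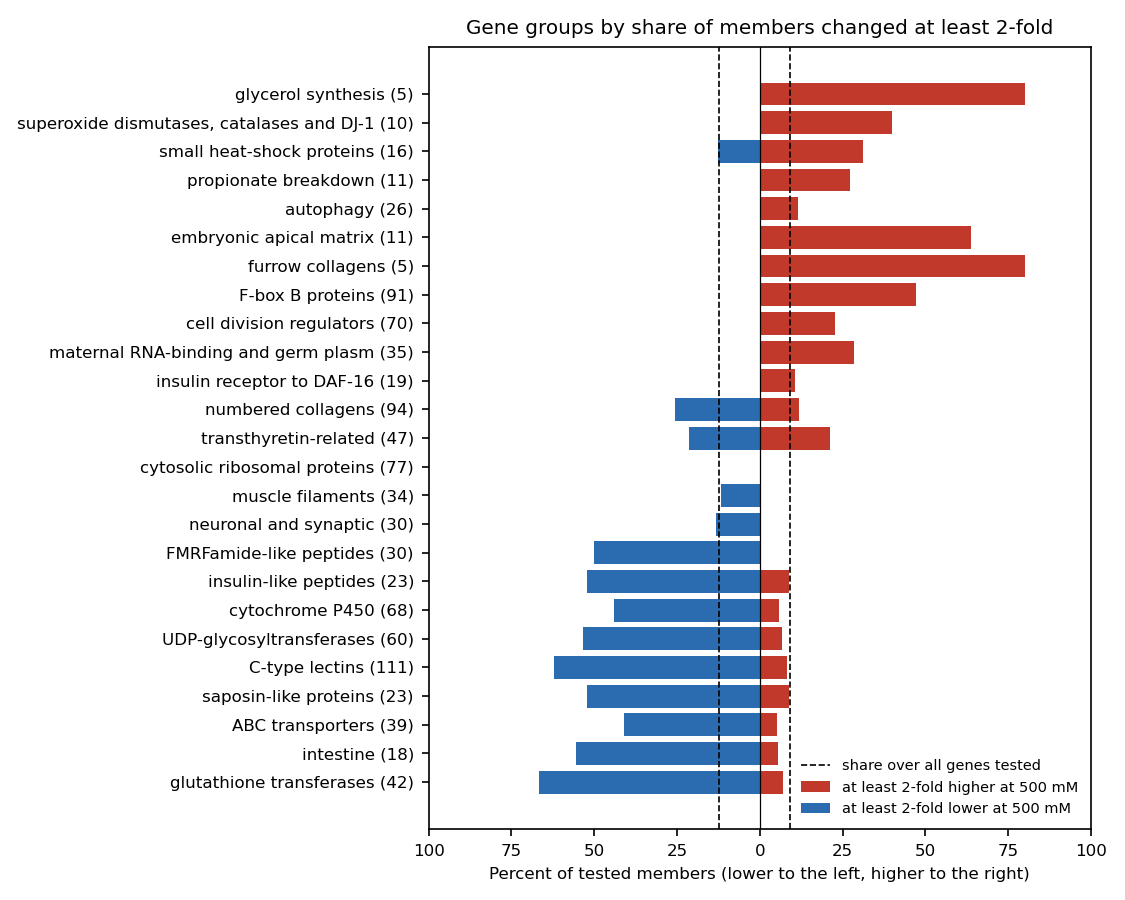
Percent of the tested members of each gene group (number tested in parentheses) that were at least 2-fold higher (bars to the right) or lower (bars to the left) at 500 mM than at 50 mM NaCl in wild type, with the share over all genes tested as dashed lines at 9.26% and 12.4%. Among the groups drawn, glutathione transferases reach furthest to the left, at 28 of 42, and glycerol synthesis and furrow collagens furthest to the right, each at 4 of 5.

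Secreted defence proteins followed the same direction with a few exceptions. Of 111 C-type lectins, which bind sugars and many of which respond to pathogens, 86 fell, 69 at least 2-fold, and 12 rose (median -1.29). *clec-74* was at 39.85, 30.64 and 43.45 FPKM at 50 mM and 0.48, 0.49 and 0.25 FPKM at 500 mM (-4.78 ± 0.14). Of 23 saposin-like proteins, membrane-piercing antimicrobials, 15 fell and 5 rose. *spp-23* was at 305.1, 170.1 and 181.2 FPKM at 50 mM and 0.67, 0.7 and 0.77 FPKM at 500 mM (-6.95 ± 0.17, adjusted p = 1.40e-11), the second largest decrease of all genes, and *spp-17* and *spp-1* fell by 6.13 and 4.54. Of 13 lysozymes 8 fell, each at least 2-fold, among them *lys-2* (-3.90 ± 0.17), *lys-1* (-3.02 ± 0.13) and *ilys-5* (-4.12 ± 0.23), and *ilys-6* alone rose. The *fipr* peptides outside the C37A5 cluster mostly fell as well, and *fipr-1* went from 217, 126.1 and 231.8 FPKM to 1.99, 2.36 and 0.61 FPKM. In all, 11 of 17 *fipr* genes fell and 5 rose.

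Epidermal antimicrobial peptides were mixed. Of 11 genes from *nlp-24* to *nlp-34*, 4 rose and 6 fell. *nlp-29*, the usual reporter of epidermal damage, was at 363.2, 290.7 and 410.9 FPKM at 50 mM and 1289.0, 1164.3 and 1067.3 FPKM at 500 mM (1.73 ± 0.14), and *nlp-28* and *nlp-32* rose by 1.85 and 2.24. *nlp-34* fell from 379.8, 237.7 and 591.4 FPKM to 90.71, 86.09 and 93.88 FPKM. *nlp-31* had overlapping groups, at 114.5, 94.87 and 197.6 FPKM at 50 mM and 138.5, 133.1 and 148.2 FPKM at 500 mM, and did not pass (adjusted p = 0.62). Among the caenacins *cnc-11* rose by 3.73 ± 0.19 and *cnc-2* fell by 4.18.

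Genes of the intestine, the tissue of digestion and fat storage, were lower as a group. Of 18 intestinal genes 13 fell, 10 at least 2-fold, and the summed level of the list was 5655.8 to 8099.5 FPKM in the controls against 2367.1 to 2555.9 FPKM in the salt-exposed libraries. *asp-1* (Y39B6A.20), an aspartic protease of the gut, lost more FPKM than any other gene and was at 4310.3, 2853.6 and 3423.6 FPKM at 50 mM and 1254.1, 1084.3 and 1163.9 FPKM at 500 mM (-1.58 ± 0.13, adjusted p = 5.03e-07). *cpr-1*, a cathepsin B-like protease, fell by 4.62 and the peptide transporter *pept-1* by 2.42. *cpr-6*, another cathepsin B-like gene, rose instead, from 22.84, 32.56 and 30.39 FPKM to 150.1, 155.8 and 151.9 FPKM (2.39 ± 0.11). The median of the intestinal list was -1.085 here and -0.47 in experiment 1. Of its 18 genes 11 changed more negatively in experiment 2 and 1 more positively. In extracts of whole embryos, fewer cells of a type and less of an RNA per cell cannot be told apart.

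Cuticle collagens changed in both directions. Of 94 tested *col* genes 32 rose and 34 fell, shares near those over all genes. At least 2-fold changes were 11 up (11.7%) and 24 down (25.5%), and the latter included the largest decrease of all genes. *col-93* (W05B2.5) was at 465, 239 and 271.4 FPKM at 50 mM and 0.83, 0.46 and 0.67 FPKM at 500 mM, 497.7 times lower on average and without overlap (-7.57 ± 0.20, adjusted p = 3.10e-11). *col-80* fell by 6.12, *col-147* by 5.22 and the abundant *col-166* by 2.59, the last from 2577.8, 1754.3 and 1562.7 FPKM. *col-10*, *col-117* and *col-3* were among the 10 largest losses of FPKM. *col-108* rose from 0.52, 0.11 and 0 FPKM to 59.52, 49.98 and 51.3 FPKM (5.51 ± 0.18).

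Collagens of the annular furrows and the matrix that covers the embryo before the cuticle went up. Of 5 tested furrow collagens 4 rose, each at least 2-fold. *dpy-7* (F46C8.6) was at 58.59, 117.1 and 72.58 FPKM at 50 mM and 277.5, 288 and 307.4 FPKM at 500 mM (1.86 ± 0.18, adjusted p = 1.58e-06), and *dpy-3*, *dpy-2* and *dpy-10* rose by 1.83, 1.64 and 1.43. *dpy-9* was near 1 FPKM in every library and did not pass (adjusted p = 0.81). All 11 genes of the embryonic apical matrix rose, 7 at least 2-fold, with a median of 1.40. *fbn-1*, which encodes a fibrillin-like protein, was at 4.25, 12.82 and 6.11 FPKM at 50 mM and 42.83, 49.21 and 48.28 FPKM at 500 mM (2.57 ± 0.27), *noah-1*, a zona pellucida domain protein of the embryonic sheath, was at 54.31, 127.2 and 111.9 FPKM at 50 mM and 276, 298.8 and 301.4 FPKM at 500 mM (1.66 ± 0.23), and *sym-1*, a leucine-rich repeat protein of that sheath, rose by 2.07 ± 0.22. Among the controls replicate 3 was the lowest for each of the genes given here by sample. *hch-1*, the astacin protease that digests the eggshell at hatching, was at 25.74, 63.16 and 38.54 FPKM at 50 mM and 194.1, 206.7 and 211.1 FPKM at 500 mM (2.33 ± 0.24), and the hedgehog-related *wrt-10* rose by 2.19 ± 0.19. Each had the largest increase of its family, of which most did not rise. Of 26 astacin proteases 4 rose and 14 fell (median -0.39), and of 47 hedgehog-related genes 15 rose and 15 fell (median -0.07).

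The change of these genes was more positive than in experiment 1. In experiment 1 the median log2 difference of the furrow collagens was -0.14 and that of the apical matrix -0.08. The control levels differed as well. Mean *noah-1* was 97.79 FPKM at 50 mM and 292.1 FPKM at 500 mM here, against 468.3 and 487.9 FPKM in experiment 1. The same means of *sym-1* were 43.29 and 175.5 FPKM here, against 269.4 and 296.4 FPKM in experiment 1. The interaction of experiment and NaCl passed for 4 of the 5 furrow collagens and for all 11 matrix genes, each with the more positive change in experiment 2. The difference between the experiments was 1.97 for *dpy-7* (adjusted p = 7.18e-04), 2.18 for *fbn-1* (adjusted p = 0.0021) and 1.60 for *noah-1* (adjusted p = 0.0064). Among the glycerol synthesis genes, whose median was 3.25 in experiment 1, the experiments differed for 3 of 5. The change in experiment 2 was larger for *pgph-3* (difference 1.27, adjusted p = 0.0030) and *pgph-2* (0.63, adjusted p = 0.021) and smaller for *gpdh-2* (-0.95, adjusted p = 9.05e-04). *gpdh-1* changed by 5.28 in experiment 1 and 5.28 here, and the test of the difference did not pass (SE 0.21, adjusted p = 0.995). *osm-11*, a secreted repressor of the osmotic stress response, fell from 272.9, 192.6 and 142.2 FPKM to 37.93, 38.45 and 39.66 FPKM (-2.31 ± 0.17).

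**Figure D4:**
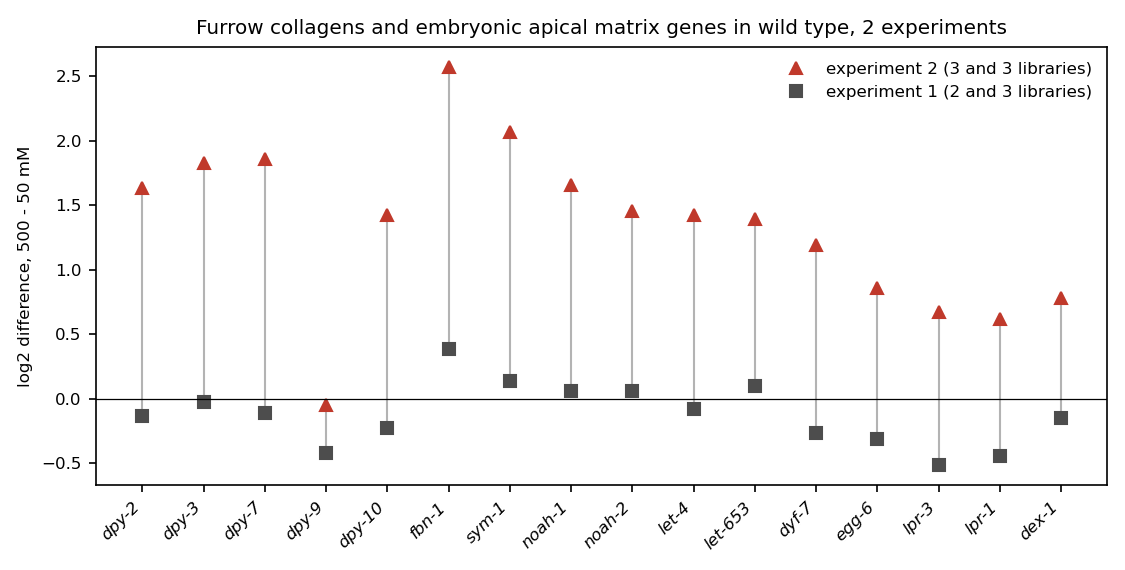
Log2 difference between 500 and 50 mM NaCl on the log2(FPKM + 1) scale for the furrow collagens and embryonic apical matrix genes in wild type, triangles for experiment 2 and squares for experiment 1, joined by a line for each gene and drawn without error bars. All genes but *dpy-9* lie between 0.62 and 2.57 in experiment 2, and the squares lie between -0.51 (*lpr-3*) and 0.39 (*fbn-1*).

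Gene groups that mark embryonic stage and tissue differed between the NaCl concentrations as well. Of 35 maternal RNA-binding and germ plasm genes, products loaded into the egg or kept in the germline, 26 rose (median 0.74). Their summed level was 179.5, 296.8 and 144.2 FPKM in control replicates 3, 4 and 5 and 344.8 to 363.9 FPKM in the salt-exposed libraries. *pos-1*, a maternal zinc-finger regulator of cell fate, was at 14.94, 29.5 and 7.88 FPKM at 50 mM and 40.55, 42.7 and 44.68 FPKM at 500 mM (1.42 ± 0.36, adjusted p = 0.0038). Of 70 cell division regulators 52 rose, 16 at least 2-fold, led by *cdc-25.2*, a phosphatase that starts mitosis, at 21.92, 48.43 and 22.5 FPKM at 50 mM and 98.91, 115.8 and 115 FPKM at 500 mM, and the cyclin *cya-1* (1.66 ± 0.17). Of 20 early lineage transcription factors 12 rose, including *lin-26*, which sets epidermal fate (0.91 ± 0.09). In each of these groups control replicate 4 had the highest summed level of the 3 controls.

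Muscle, neuronal and pharyngeal genes were mostly lower, and epidermal genes mostly higher. Of 34 muscle genes 22 fell and 3 rose (median -0.63), among them the actin *act-3*, at 3618.2, 2867.9 and 2717.0 FPKM at 50 mM and 1429.3, 1315.5 and 1296.9 FPKM at 500 mM (-1.18 ± 0.12), a member of a family of near-identical copies. Of 30 neuronal genes 19 fell and 5 rose, led by *rab-3*, a synaptic vesicle GTPase (-1.32 ± 0.10). All 30 tested FMRFamide-like peptide genes, which encode neuronal signals, fell, 15 of them at least 2-fold, with *flp-4* at 55.94, 31.8 and 43.95 FPKM at 50 mM and 12.26, 12.87 and 13.25 FPKM at 500 mM. Of 16 pharyngeal genes 11 fell and 3 rose. Cilia genes went the other way, with 12 of 31 higher and 3 lower (median 0.22), but with replicate 5 as the only control 6 were higher and 5 lower, and 7 and 6 without control replicate 3. Under median-ratio scaling 7 were higher and 5 lower. Epidermal genes rose in 13 of 19 cases, for example the adherens junction cadherin *hmr-1* (0.86 ± 0.14). Under either median-ratio scaling or quantile normalization 10 rose, and also 10 without control replicate 3. In experiment 1 the median of the epidermal genes was -0.10. Of the 19, 11 changed more positively in experiment 2 and none more negatively. Of the 6 Hox genes, which pattern the body axis, 1 passed. Salt and a difference in developmental stage cannot be told apart in these libraries.

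**Figure D5:**
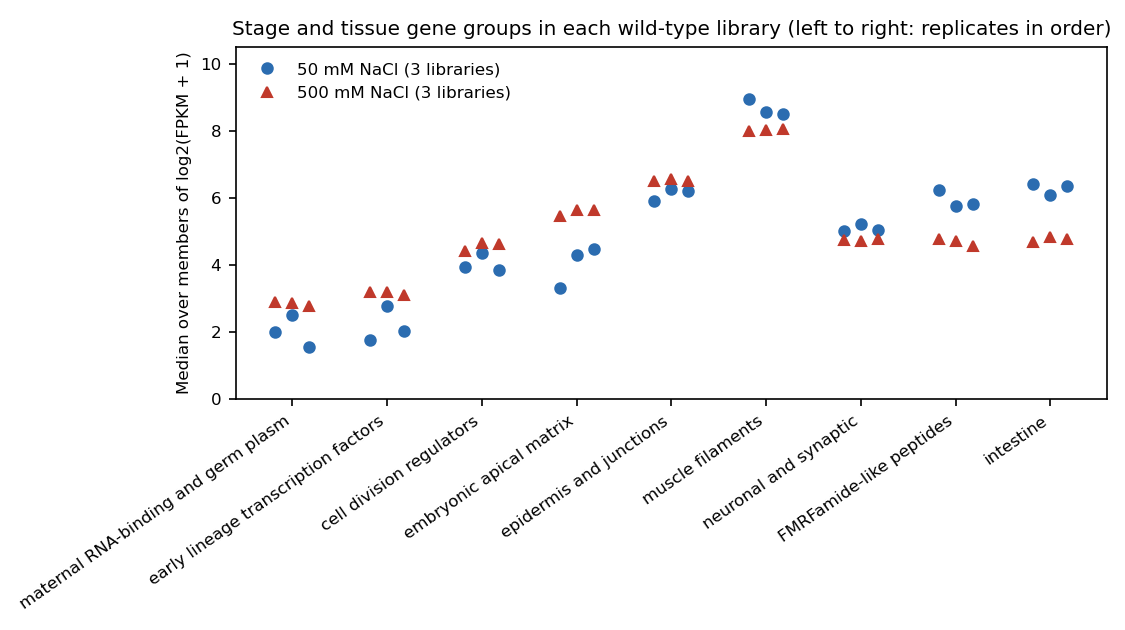
Median over the members of each stage or tissue group of log2(FPKM + 1), for each wild-type library (circles for 50 mM, replicates 3, 4 and 5 from left to right; triangles for 500 mM, replicates 4, 5 and 6). The salt-exposed libraries lie above the controls for the 5 groups on the left and below them for the 4 on the right, and control replicate 4 is the nearest to them for the maternal and early lineage groups.

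The size of the early-gene response depended on the controls. Without replicate 5 at 50 mM, 3 of the maternal genes rose at least 2-fold, against 10 with all controls and 17 without replicate 4. For the cell division regulators the same counts were 9, 16 and 29. With replicate 5 as the only control they were 19 for the maternal genes and 35 for the cell division regulators.

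Core components of growth shifted by small amounts. Of 77 cytosolic ribosomal protein genes 63 fell and 1 rose, none by 2-fold (median -0.53), and *rps-8*, *rps-7* and *rps-25* were among the 10 largest losses of FPKM. This count was sensitive to scaling, since after quantile normalization 24 fell and 3 rose, with a median of -0.09. Of 45 genes of the respiratory chain and ATP synthase 26 fell and 3 rose, with *atp-1*, the alpha subunit of ATP synthase, at 1684.4, 1361.5 and 1165.8 FPKM at 50 mM and 777.9, 748.2 and 774.6 FPKM at 500 mM. Aminoacyl-tRNA synthetases, which charge tRNAs, fell in 19 of 34 cases, *nars-1* the most (-1.21 ± 0.08).

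F-box genes, an expanded family in nematodes, differed by class. Of 91 tested F-box B genes, which encode candidate substrate receptors of ubiquitin ligases, 68 rose, 43 at least 2-fold, and 1 fell (median 0.94). *fbxb-101* was at 4.98, 9.08 and 4.66 FPKM at 50 mM and 47.58, 45.41 and 51.25 FPKM at 500 mM (2.81 ± 0.21), and *fbxb-41* rose by 2.98 ± 0.40 with controls of 3.25, 8.5 and 1.22 FPKM. In experiment 1 the median of the family was 0.94. The count depended on the controls, with 36 F-box B genes at least 2-fold higher without replicate 5 at 50 mM and 54 without replicate 4. Of 42 F-box C genes, a class added after its values were seen, 23 rose, 12 at least 2-fold, and 7 fell (median 0.62). The F-box A genes mostly fell or did not pass, with 26 of 125 higher and 60 lower. Of 25 Skp1-related and cullin genes, partners of F-box proteins, 13 rose and 2 fell, with *skr-21* (1.78 ± 0.17) and *skr-19* (1.76 ± 0.11) highest and *cul-6* (-1.85 ± 0.15) lowest. Without replicate 5 at 50 mM, 9 of the Skp1-related and cullin genes rose, and 16 without replicate 4. Some genes of the families in this paragraph are close copies of each other, and the division of reads between them is uncertain.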

How the data were processed

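Total RNA of embryos was sequenced as strand-specific, paired-end libraries, which the authors mapped to the ce10 assembly with RSEM 1.2.15 and Bowtie 1.0.1. They deposited FPKM per gene and library. Of 45461 rows, 1 with a missing value was left out, and 23483 were at 0 in every library. Symbols came from a RefSeq gene table of WBcel235 (44079 identifiers matched), and no coordinates or sequences are given. The authors tested rounded expected counts with DESeq2, and those counts were not used here.

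Differences were tested with limma 3.58.1 in R 4.3.3 (eBayes with trend) on log2(FPKM + 1), over the 12 libraries of experiment 2, with 4 group means, genes kept where 2 or more libraries reached 1 FPKM, and Benjamini-Hochberg adjustment at 0.05. The comparison of experiments used the wild-type libraries of both. In simulated data the wild-type test recovered 50 of 50 genes at each of 2-fold and 4-fold, up and down, and called 12 of 14198 unchanged genes. The simulation gave every library the same spread, changed only genes well above 1 FPKM and left most genes unchanged. In the real data the controls were less alike than the salt-exposed libraries, and 70.1% of genes were called. The simulated rates therefore do not carry over to the real data.

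The genes named were the 20 largest changes in each direction without overlap, the 10 largest gains and losses of FPKM, the members of each group with the largest changes (all members of small groups), and *sod-5*, *lea-1*, *gpdh-1*, *gpdh-2* and *daf-16*. The samples and gene lists were chosen with earlier results of these data known. Estimated depth gives 15.2 to 23.6 fragments per FPKM and kilobase, so genes near 1 FPKM are imprecise. Figures were drawn with matplotlib 3.10.9 in Python 3.11.15. Alternatives are given in the closing section.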

Additional observations from a re-analysis of the deposited data

Results flagged for a closer look

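The wild-type change differed between the 2 experiments for 4621 genes and between wild type and *daf-16* mutants for 2685, of which 1667 changed more positively in wild type, both by the interaction test in limma. The larger wild-type change in experiment 2 than in experiment 1 was 3.12 for *sod-5*, 1.45 for *lea-1* and 1.05 for *daf-16* on the log2 scale, and for *gpdh-2* the difference was -0.95. Against *daf-16* mutants of the same experiment, the wild-type change exceeded the mutant's by 3.54 for *sod-5*, 1.58 for *lea-1* and 0.74 for *daf-16*, and that of *gpdh-2* differed by -0.66.

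Furrow collagens and apical matrix genes also differed between the experiments. The differences were 1.77 for *dpy-2*, 1.85 for *dpy-3*, 1.97 for *dpy-7* and 1.65 for *dpy-10*. For the matrix genes they were 2.18 (*fbn-1*), 1.94 (*sym-1*), 1.60 (*noah-1*), 1.40 (*noah-2*), 1.502 (*let-4*), 1.3 (*let-653*), 1.46 (*dyf-7*), 1.17 (*egg-6*), 1.19 (*lpr-3*), 1.06 (*lpr-1*) and 0.93 (*dex-1*). Experiment 1 has 2 wild-type libraries at 50 mM, and the cause of these differences was not tested.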

How the results depend on the processing

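The alternatives were a pseudocount of 0.1, no filter on low FPKM, median-ratio scaling, quantile normalization, limma without trend, the wild-type libraries alone, the replicate number as a block, the library-number series as a term, and each wild-type library left out. A fit with replicate 5 as the only control was added after the data were seen, and assumes that this lone sample varies like the other groups. All 4 counts of wild-type calls stayed within 1.5 times under each of them. Leaving out single libraries gave 1221 to 1720 genes at least 2-fold higher and 1728 to 2046 lower. The labels share replicate numbers 4 and 5 between the NaCl concentrations, but same-numbered samples did not deviate together (r = -0.285 and -0.052 across genes). With the wild-type libraries alone, 4812 genes were higher and 4435 lower. With the replicate block, 4376 genes were higher and 4320 lower, 1252 differed between the experiments and 1338 between genotypes. Without single wild-type libraries the genotype count ranged from 1270 to 3930, lowest without replicate 4 at 500 mM, and that between the experiments from 3582 to 6264. The cause of these shifts was not tested. Over 6653 pairs of named gene and alternative, 6413 kept their call, 61 gained and 175 lost it, and 4 changed sign, *nlp-31* at -0.50 and *sod-4* at -0.35, each both with the series term and with replicate 5 as the only control. FPKM keeps no counts, and the limit at this depth is for genes near 1 FPKM.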

Other observations

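The groups and genes given here were chosen after their values were seen and carry no test beyond that of each gene. Peroxisomal fatty acid oxidation, which shortens very long fatty acids and makes the side chains of ascaroside pheromones, was lower throughout, with all 12 tested genes down and 10 at least 2-fold (median -1.69). The acyl-CoA oxidase *acox-1.1* was at 167.9, 127 and 160.8 FPKM at 50 mM and 28.69, 30.84 and 30.34 FPKM at 500 mM, and the thiolase *daf-22* at 337.5, 243.4 and 333.6 FPKM at 50 mM and 110.2, 113 and 117.8 FPKM at 500 mM. In experiment 1 the median was -0.18, and all 12 genes changed more negatively in experiment 2. Cathepsin proteases of the lysosome and gut fell in 17 of 22 cases, *asp-6* from 1756.5, 1163.7 and 1346.3 FPKM to 363.8, 357.4 and 325 FPKM, and 4 rose. All 8 *irg* genes, named for their response to infection, fell, *irg-3* from 344.1, 211.8 and 302.7 FPKM to 8.21, 6.27 and 7.76 FPKM.

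Of 10 cadherin genes 9 rose (median 1.00, against -0.13 in experiment 1). The 5 that did so at least 2-fold became 2 without control replicate 3, 8 without control replicate 4, and 3 under either median-ratio scaling or quantile normalization. *tts-1*, a noncoding RNA known from long-lived *daf-2* mutants, was at 53.7, 30.04 and 41.28 FPKM at 50 mM and 931.9, 748.2 and 684.3 FPKM at 500 mM (4.24 ± 0.20). *dao-6*, named for its expression in dauer larvae and aging adults, rose by 4.46 ± 0.23, and the aldehyde dehydrogenase *alh-2* went from 0.03, 0.03 and 0.04 FPKM to 30.19, 21.98 and 21.15 FPKM. The genes at least 2-fold lower were spread unevenly over the chromosomes, at 20.25% of those tested on chromosome V and 5.74% on chromosome I, where the share over all genes was 12.4%. The 6 *pud* genes, dauer-enriched proteins, fell, but 2 of them have identical values, and *pud-1.2* varied widely, at 296.4, 42.12 and 5.06 FPKM at 50 mM and 3.22, 8.6 and 1.86 FPKM at 500 mM, with overlapping groups.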
